A study of Mus musculus with 6 samples.

Results

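The genes described here are 43 mouse genes of the hypoxia response and of glycolysis, out of 33696 genes in the deposited count matrices. They were taken by symbol from a list of genes of these pathways, and all 43 were found. They comprise 4 oxygen-sensing regulators, 15 genes commonly induced by low oxygen, 3 carriers of glucose or lactate, 17 glycolytic enzymes and 4 regulators of glycolytic flux. The list was not chosen by any measured value.

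Cells sense oxygen through prolyl hydroxylases of the Egln family, which mark the alpha subunits Hif1a and Epas1 for breakdown while oxygen is present. When oxygen is short the subunits accumulate, pair with a constitutive partner and bind hypoxia response elements, whose core is written RCGTG, beside genes for glucose uptake, glycolysis, blood vessel growth and mitochondrial removal. Photoreceptors are known for fermenting much of their glucose to lactate although oxygen is available, and the retinal pigment epithelium (RPE) carries glucose from the choroidal blood to them and burns lactate in return.

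The study asked how contraction of the ciliary muscle bears on the onset of myopia. Its material was the mouse ocular cup of right eyes, meaning posterior sclera, choroid and retina left after lens, cornea and iris with ciliary body had been cut away. In the tropicamide group, labelled as relaxed ciliary muscle, eyes received tropicamide drops, a muscarinic receptor antagonist, every 10 min for 6 applications and were left for 1 h. In the saline group, labelled as contracted ciliary muscle, eyes received saline drops at the same frequency, and neither group's labels give another allele or agent. The number of saline applications and the wait after them are not given in the labels. Each group held 12 mice, 4 eyes were pooled for each library, and there were 3 libraries in each group and 6 in all. Neither the strain nor the age or sex of the mice is stated in the sources used here. An effect of the drug on the muscle and one on the cup itself cannot be told apart in this design. A p-value between the groups measures the spread between these pools.

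The 6 libraries held between 9472 and 13518 cell barcodes and between 30761887 and 49477707 unique molecular identifiers (UMIs), with medians of 2188.5 to 2527.5 UMIs for each barcode. Pairs of libraries shared between 22 and 64 barcodes, at most 0.504% of the smaller library. After filtering and removal of doublets 60096 cells were left. They were clustered without the 43 genes, and each cluster was named from marker genes, so every class name below stands for cells that are rod-like, cone-like and so on. Rods made up 49445 of these cells, fibroblasts 2394, RPE 1793, endothelial cells 1193 and Müller glia 366. A pair of stromal classes is called by its leading genes, Smoc1/Angpt1 stromal cells (843) and Wnt6/Wnt10a stromal cells (585). Cells with corneal or conjunctival epithelial markers (185) were present although the cornea had been removed. Levels are given for the 13 classes that kept 10 or more cells in each library, as CPM, that is, UMIs of a gene scaled to a fixed total of UMIs for the class in that library. Rod RNA was detected in every class: judged from rhodopsin, at most 5.12 to 7.91% of the UMIs in fibroblasts, 9.88 to 15.83% in RPE, 6.92 to 11.23% in endothelial cells and 6.43 to 18.96% in Müller glia could come from rods. In erythroid cells that ceiling was 59.14% in saline library 1 and 10.33 to 23.3% in the other 5.

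Promoter windows are shown for 5 members picked from those named below: Ldha, Pfkfb2, Slc16a1, Txnip and Tpi1. Ldha supplied most lactate dehydrogenase UMIs in rods. Pfkfb2, Slc16a1 and Txnip rose in rods under tropicamide, and Tpi1 fell there. Ndrg1 and P4ha2, which also rose in rods, and Pfkl, which also fell, are not printed. The sequences are from RefSeq on GRCm38.p6 and run from 250 bases before to 50 bases after an annotated gene start; the count matrices were made on GRCm39. Capitals mark each match to ACGTG or GCGTG, the 2 spellings of the core of a hypoxia response element, on either strand (CACGT or CACGC where the match is on the other strand). A CACGTG is matched once on each strand, its matches overlap, and it counts as 2. The Ldha window, the first of 2, lies at chr7:46845554-46845853 on the plus strand, the Pfkfb2 window, the second of 3, at chr1:130715772-130716071 on the minus strand, the Slc16a1 window at chr3:104638414-104638713 on the plus strand, the Txnip window at chr3:96557707-96558006 on the plus strand and the Tpi1 window at chr6:124814109-124814408 on the minus strand.
Ldha: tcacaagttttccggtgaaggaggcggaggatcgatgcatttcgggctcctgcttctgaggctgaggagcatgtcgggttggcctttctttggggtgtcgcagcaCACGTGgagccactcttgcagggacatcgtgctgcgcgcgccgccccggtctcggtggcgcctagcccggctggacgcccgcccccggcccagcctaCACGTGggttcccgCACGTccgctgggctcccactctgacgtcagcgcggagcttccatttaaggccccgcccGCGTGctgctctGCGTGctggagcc
Pfkfb2: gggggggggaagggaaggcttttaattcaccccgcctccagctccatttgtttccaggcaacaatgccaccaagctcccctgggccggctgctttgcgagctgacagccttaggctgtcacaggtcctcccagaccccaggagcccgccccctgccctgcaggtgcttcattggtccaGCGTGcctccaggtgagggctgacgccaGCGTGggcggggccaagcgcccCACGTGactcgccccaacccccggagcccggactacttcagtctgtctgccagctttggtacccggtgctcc
Slc16a1: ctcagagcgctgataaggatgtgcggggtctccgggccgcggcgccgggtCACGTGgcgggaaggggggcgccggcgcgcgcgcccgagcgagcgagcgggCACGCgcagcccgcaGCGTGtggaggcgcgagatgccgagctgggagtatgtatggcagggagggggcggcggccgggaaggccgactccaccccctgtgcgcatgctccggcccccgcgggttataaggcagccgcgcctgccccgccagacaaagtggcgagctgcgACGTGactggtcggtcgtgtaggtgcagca
Txnip: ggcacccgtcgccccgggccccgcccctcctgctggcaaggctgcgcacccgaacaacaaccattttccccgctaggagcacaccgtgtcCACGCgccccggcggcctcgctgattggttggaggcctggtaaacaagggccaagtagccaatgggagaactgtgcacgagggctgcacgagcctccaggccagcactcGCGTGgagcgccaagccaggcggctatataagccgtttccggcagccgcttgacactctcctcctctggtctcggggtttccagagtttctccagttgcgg
Tpi1: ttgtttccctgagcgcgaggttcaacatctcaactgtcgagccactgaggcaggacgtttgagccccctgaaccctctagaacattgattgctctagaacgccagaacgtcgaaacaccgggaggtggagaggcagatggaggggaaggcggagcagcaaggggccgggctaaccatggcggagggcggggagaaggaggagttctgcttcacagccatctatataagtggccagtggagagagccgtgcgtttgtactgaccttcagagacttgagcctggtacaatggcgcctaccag

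The Ldha window held 7 matches, the Slc16a1 window 5, the Pfkfb2 window 4, the Txnip window 2 and the Tpi1 window 0. For genes with several windows the one with the most matches is printed: the other Ldha window held 2 and the other Pfkfb2 windows 1 each. Of the 43 members, 40 were found in the promoter table, and Epas1, Bnip3l and Ndrg1 were not. Among the 60 windows of these 40 members, 48 held a match (80.0%), against 14380 of all 32851 windows (43.8%). With ACGTG alone the shares were 53.3% and 19.6%. Of the 40, only Eno2, Gpi1 and Tpi1 had no match in any of their windows. Pfkl, which fell in rods as Tpi1 did, thus had a match. Whether matches go with the direction of change was not tested. A match is a run of letters, and whether any of these sites is bound was not measured.

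The class of highest mean level differed between the members. Of the 43, 9 had their highest mean level in rod bipolar cells, 7 in endothelial cells, 6 in RPE, 4 each in rods, cones, cone bipolar cells and Müller glia, and 1 each in 5 other classes. None had its highest mean in Smoc1/Angpt1 stromal cells. Many of these highest means stood close to the next class, and all 9 in rod bipolar cells overlapped another class in library range. The rod RNA that rhodopsin allows was also subtracted from the other classes, without rescaling what was left. This can only lower their levels, more so where the ceiling is high, and leaves rods as they were. By that subtraction the highest class of Egln1, Kdm3a and Hk1 became rods. That of Bnip3l and Pdk1 became the corneal or conjunctival class. These changes therefore do not show which class is highest. Summed over the 17 glycolytic enzymes, neural and RPE classes stood above stroma: 7156.1 ± 656.9 CPM in cones, 6746.1 ± 287.7 CPM in RPE, 5955.4 ± 257.0 CPM in rods and 5152.9 ± 292.7 CPM in Müller glia (SD, n = 6 libraries). The same sum was 2124.0 ± 98.4 CPM in endothelial cells and 1793.6 ± 98.6 CPM in fibroblasts. The sum of the 15 hypoxia-induced genes ran differently, with 1756.8 ± 204.3 CPM in endothelial cells and 954.5 CPM in rods. Much of that difference is Txnip, whose levels are given below, so it does not describe the 15 genes as a set. Vegfa, Ankrd37, P4ha1, Mxi1 and Ero1a averaged higher in rods than in endothelial cells, and the others lower. Such sums are compared between classes only, since UMIs of different genes are not on a common scale.

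**Figure D1:**
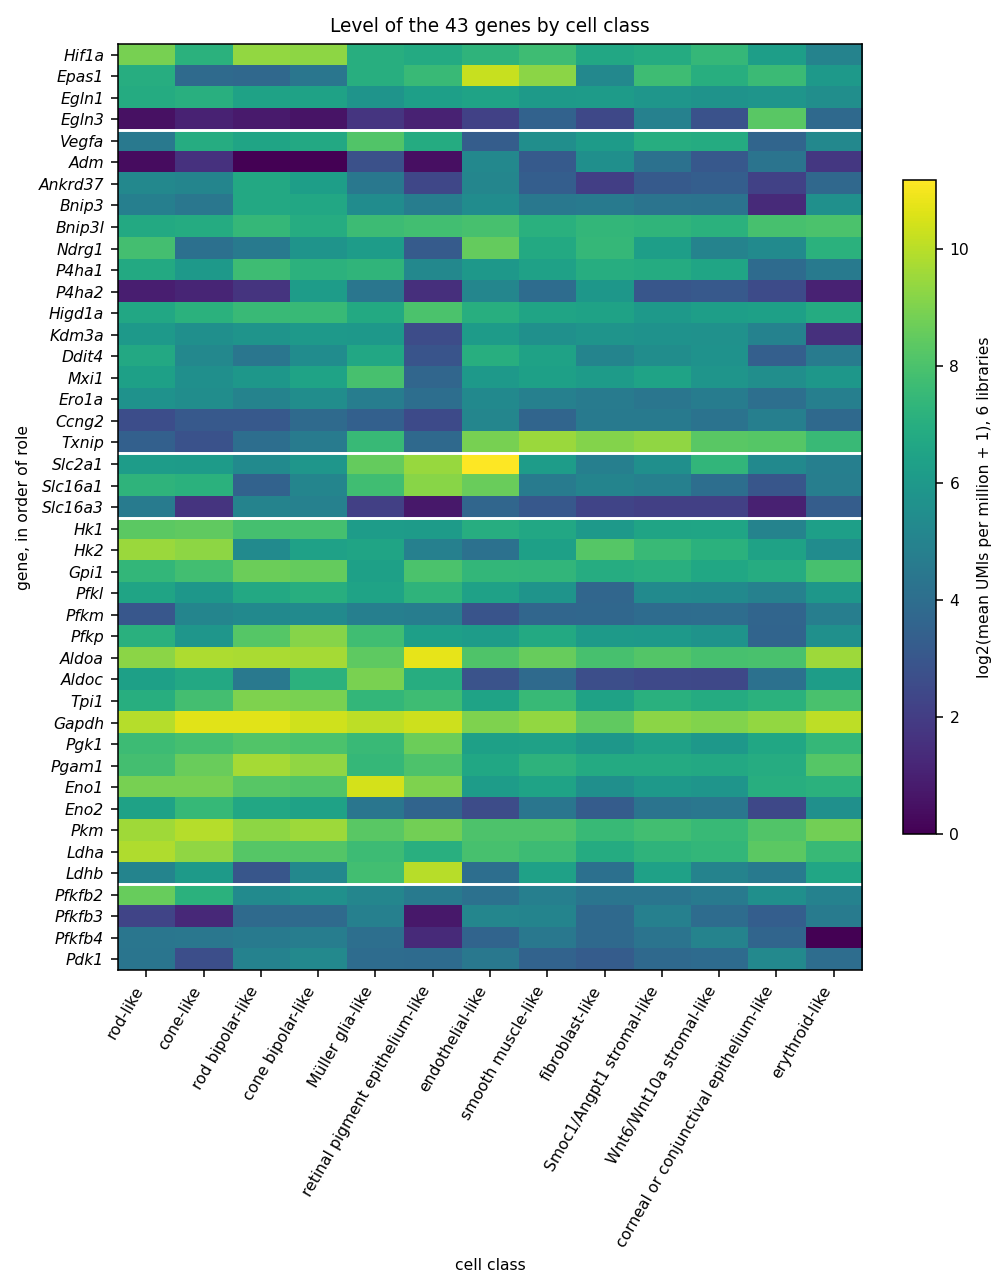
Mean level of each of the 43 genes over the 6 libraries in the 13 cell classes, as log2(CPM + 1), with genes grouped by role and white lines between the roles. The endothelial column stands out for Epas1 (1192.4 CPM) and Slc2a1 (2318.28 CPM), the RPE column for Ldhb (1006.65 CPM), the Müller glia column for Eno1 (1419.5 CPM) and the rod column for Pfkfb2 (384.5 CPM).

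Among the regulators, Hif1a and Epas1 divided the classes. Epas1, which encodes the alpha subunit HIF-2alpha and is known from vessel walls, stood at 1122.34, 1187.8 and 1348.57 CPM in endothelial cells of the tropicamide libraries and at 1261.73, 1140.31 and 1093.66 CPM in those of the saline libraries. The next class, smooth muscle, averaged 607.64 CPM, rods 123.8 CPM and rod bipolar cells 12.85 CPM. No library of any other class reached the lowest endothelial value. Hif1a, which encodes HIF-1alpha, averaged 655.83 CPM in rod bipolar cells and 625.32 CPM in cone bipolar cells, whose library ranges overlapped. In rods it was 509.59, 513.44 and 469.08 CPM with tropicamide and 455.09, 450.24 and 459.18 CPM with saline. Hif1a therefore supplied 79.35% of the Hif1a and Epas1 UMIs in rods but 11.31% in endothelial cells, a difference of −68.03 ± 1.49 percentage points (SD over 6 libraries). Its share was 26.05% in smooth muscle, 37.32% in RPE, 49.59% in Müller glia and 98.21% in rod bipolar cells.

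Egln1, the main oxygen-sensing hydroxylase, was spread over the retina, with 131.27 CPM in cones and 117.94 CPM in rods. Egln3, an inducible relative, was a gene of surface epithelium in these libraries: 315.08 CPM in corneal or conjunctival cells (233.49 to 424.38), 29.24 CPM in Smoc1/Angpt1 stromal cells and 0.42 CPM in rods. Egln1 accordingly made up 99.64% of the Egln1 and Egln3 UMIs in rods and 15.44% in the corneal or conjunctival class (difference −84.2 ± 3.0 points), with 66.61% in Smoc1/Angpt1 stromal cells.

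These shares were tested against rods in 132 comparisons over 11 pairs or trios of related genes, each by a two-sided exact sign-flip test over the 6 libraries. Of the 132, 107 passed at a Benjamini-Hochberg adjusted p of 0.03855, all at 0.03125, the smallest p that 6 libraries can give, and in all 107 every library lay on the same side. All 107 kept their direction when the rod RNA that rhodopsin allows was taken off. With any library left out the smallest possible p is 0.0625, so none could pass. A share compares how UMIs divide between genes in different classes, and is not a ratio of molecules.

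The 15 hypoxia-induced genes had no common site. Vegfa, the vessel growth factor that maintains the choriocapillaris, was highest in Müller glia at 352.26, 355.09 and 272.57 CPM with tropicamide and 227.95, 209.73 and 266.05 CPM with saline. Smoc1/Angpt1 stromal cells averaged 123.81 CPM, cones 121.4 CPM, RPE 117.84 CPM, rods 22.26 CPM and endothelial cells, which receive the signal, 8.81 CPM. Every Müller glia library stood above every library of the other 12 classes. Mxi1, a repressor of the Myc network, was likewise highest in Müller glia (239.02 CPM, 203.85 to 291.94), 2.69 times the next class. Adm, which encodes the vasodilator adrenomedullin, averaged 46.04 CPM in fibroblasts, 36.1 CPM in endothelial cells and 0.31 CPM in rods. Ndrg1, a gene of stress and differentiation, averaged 371.23 CPM in endothelial cells, 227.88 CPM in rods, 171.87 CPM in fibroblasts and 8.28 CPM in RPE.

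Txnip, which binds thioredoxin and limits glucose uptake, was a gene of stroma and vessels. It averaged 718.35 CPM in smooth muscle (381.9 to 1139.81), 631.08 CPM in Smoc1/Angpt1 stromal cells, 545.94 CPM in fibroblasts and 465.59 CPM in endothelial cells, against 9.87 CPM in rods and 5.99 CPM in cones. Ddit4, an inhibitor of mTORC1 signalling, averaged 126.55 CPM in endothelial cells and 105.34 CPM in rods but 6.42 CPM in RPE. The mitophagy receptors differed: Bnip3 averaged 104.92 CPM in rod bipolar cells and 1.5 CPM in the corneal or conjunctival class. Bnip3l, required for clearing mitochondria from maturing red cells, was highest on average in the erythroid class (259.84 CPM, 133.93 to 444.46). That range overlapped those of 11 other classes. Subtracting rod RNA put the corneal or conjunctival class above the erythroid class, but what was left was not rescaled. The rod ceiling reached 59.14% in erythroid cells and 7.97% in the corneal or conjunctival class, so that order of Bnip3l cannot be read from it. Among the rest, Higd1a, a survival factor of the inner mitochondrial membrane, was highest in RPE (254.38 CPM), Ankrd37 in rod bipolar cells (105.55 CPM) and the cyclin gene Ccng2 in endothelial cells (34.24 CPM). The histone demethylase gene Kdm3a averaged 70.15 CPM in endothelial cells and 65.06 CPM in rods, and Ero1a, an oxidase of protein folding, 50.78 CPM in rods and 44.21 CPM in cone bipolar cells. P4ha1 and P4ha2 encode catalytic subunits of the enzyme that hydroxylates collagen. P4ha1 supplied 99.13% of their UMIs in rods, 68.37% in fibroblasts and 65.07% in endothelial cells, with P4ha2 taking the rest. Cone bipolar cells, at 66.7%, differed from rods as well, while rod bipolar cells, at 98.89%, did not pass (exact p = 0.84375).

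Slc2a1, the glucose transporter GLUT1 of the blood-retina barrier, was highest in endothelial cells, at 1811.23, 2404.84 and 3318.85 CPM with tropicamide and 2234.5, 2181.34 and 1958.9 CPM with saline. RPE, the outer barrier, averaged 703.35 CPM (644.26 to 780.07), Müller glia 367.52 CPM and rods 71.58 CPM. The endothelial mean was 3.3 times that of RPE and no library of another class reached the lowest endothelial value. Slc16a1, the lactate and pyruvate carrier MCT1, was highest in RPE (577.34 CPM, 487.52 to 657.58), followed by endothelial cells (391.16 CPM, 194.69 to 547.06), whose ranges overlapped, then Müller glia (215.04 CPM) and rods (152.28 CPM). Slc16a3, the carrier MCT4, averaged 31.35 CPM in rod bipolar cells, 24.27 CPM in rods and 0.67 CPM in RPE. Slc16a1 supplied 99.89% of the pair's UMIs in RPE, 98.42% in Müller glia and 86.06% in rods.

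The endothelial level hid large differences between clusters. The largest, of 439 cells, was led by Spock2, Slco1a4, Abcb1a and Slco1c1, genes known from barrier-forming endothelium. With its cells of all libraries summed, it held 4056.32 CPM of Slc2a1 and 946.5 CPM of Slc16a1. A cluster of 303 cells led by Lrg1 and Vwf, the latter encoding von Willebrand factor, held 2383.74 CPM of Slc2a1 but 13.08 CPM of Slc16a1. A cluster of 232 cells led by Plvap, which marks fenestrated vessels such as the choriocapillaris, held 503.28 CPM and 6.04 CPM. A cluster of 33 cells with the lymphatic genes Ccl21a and Lyve1 held 23.9 CPM of Slc2a1, 231.03 CPM of Epas1 and 2607.7 CPM of Txnip. The cluster led by Spock2 made up 26.0, 30.3 and 51.7% of endothelial cells with tropicamide and 56.4, 49.1 and 39.3% with saline, so the endothelial sums of the libraries mix these clusters in differing proportions.

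The enzymes are taken in pathway order. Hexokinases trap glucose in the cell, and in rods most hexokinase UMIs were of Hk2, the form usually found in muscle and tumours. Hk2 was 670.54, 660.45 and 685.81 CPM in rods with tropicamide and 774.37, 830.33 and 692.5 CPM with saline. Cones averaged 627.31 CPM, fibroblasts 296.67 CPM and endothelial cells 17.01 CPM. Hk1, the general form, supplied 31.18% of the 2 hexokinases' UMIs in rods, 36.23% in cones, 73.55% in cone bipolar cells, 85.34% in rod bipolar cells and 88.17% in endothelial cells. The endothelial difference from rods was 57.0 ± 5.15 points. Müller glia, at 43.3% (exact p = 0.09375), and fibroblasts, at 19.86% (exact p = 0.0625), did not pass against rods. Among fibroblast clusters Hk2 ran from 140.19 to 439.62 CPM, the latter in the cluster led by Ebf2 and Gfpt2.

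Phosphofructokinase commits glucose to glycolysis through 3 subunits. Pfkp was highest in cone bipolar cells (569.35 CPM, 426.08 to 729.65) and made up 77.0% of the trio's UMIs there, against 58.48% in rods, 30.18% in RPE and 22.15% in the corneal or conjunctival class. In RPE the subunit Pfkl led with 59.8%, against 38.4% in rods and 13.32% in fibroblasts. Pfkm, the muscle subunit, supplied 22.87% in cones and 3.12% in rods, a difference of 19.76 points between the photoreceptor types.

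Aldolase splits the resulting sugar, and Müller glia had the lowest Aldoa share of the classes compared. Aldoc averaged 481.22 CPM in Müller glia (399.23 to 556.24), 146.08 CPM in cone bipolar cells and 79.9 CPM in rods. Aldoa supplied 88.17% of the pair's UMIs in rods but 43.96, 46.25 and 43.39% in Müller glia with tropicamide and 38.54, 34.93 and 39.75% with saline. The mean difference from rods was −47.04 ± 4.48 points. The rod RNA that rhodopsin allows in Müller glia was 16.22, 16.62 and 18.96% with tropicamide and 10.43, 6.43 and 11.39% with saline. With it taken off, the Aldoa share was 36.77, 39.69 and 34.81% against 33.5, 32.04 and 35.04%, and the groups overlapped. Aldoa itself was highest in RPE (1715.93 CPM, 1598.91 to 1870.82).

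In the lower pathway, enolase also set Müller glia apart. Eno1 was 1240.73, 1223.07 and 1630.88 CPM in Müller glia with tropicamide and 1382.38, 1568.42 and 1471.51 CPM with saline. The next class, RPE, averaged 513.44 CPM (478.68 to 554.46) and rods 476.21 CPM. Every Müller glia library exceeded every library of the other classes. Eno2, the neuronal form, was highest in cones (176.89 CPM, 145.61 to 217.4), where Eno1 supplied 72.66% of the pair's UMIs against 84.64% in rods. Pgk1, an ATP-yielding step, was highest in RPE (409.45 CPM, 376.97 to 455.54). Gapdh averaged 1655.91 CPM in rod bipolar cells and 1635.99 CPM in cones, and Tpi1, Pgam1 and Gpi1 were also highest on average in rod bipolar cells, at 516.98, 814.55 and 399.99 CPM. Pkm, which makes pyruvate, was highest in cones at 986.73 CPM with rods at 777.49 CPM. Genes of this pathway have many processed pseudogenes, so reads may have been lost or split in counting, and their absolute levels are uncertain.

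Lactate dehydrogenase gave the widest split between neighbouring layers. Ldha, whose subunit favours making lactate from pyruvate, was highest in rods at 875.37, 982.76 and 931.16 CPM with tropicamide and 828.36, 946.68 and 895.05 CPM with saline. Cones followed at 630.92 CPM (515.77 to 739.52), and fibroblasts were lowest at 115.48 CPM. Ldhb, whose subunit favours using lactate, was highest in RPE at 1037.93, 922.4 and 1010.84 CPM with tropicamide and 1144.26, 949.39 and 975.09 CPM with saline. Müller glia averaged 218.53 CPM and rods 31.79 CPM of Ldhb. The Ldha share was thus 96.62% in rods (96.32 to 96.86) and 11.91, 10.95, 11.09, 11.34, 12.43 and 11.09% in the 6 RPE libraries. That difference of −85.16 ± 0.47 points varied little between libraries. Müller glia were intermediate at 47.72%, as were Smoc1/Angpt1 stromal cells at 64.78%, while cones stood at 90.19% and endothelial cells at 94.05%. The shares of the first 2 classes are given before rod RNA was taken off. Rod RNA is rich in Ldha and could raise them, and rhodopsin allows 6.43 to 18.96% of it in Müller glia. Rod bipolar cells, at 98.01%, did not pass against rods (difference 1.39 ± 1.99 points, exact p = 0.15625).

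**Figure D2:**
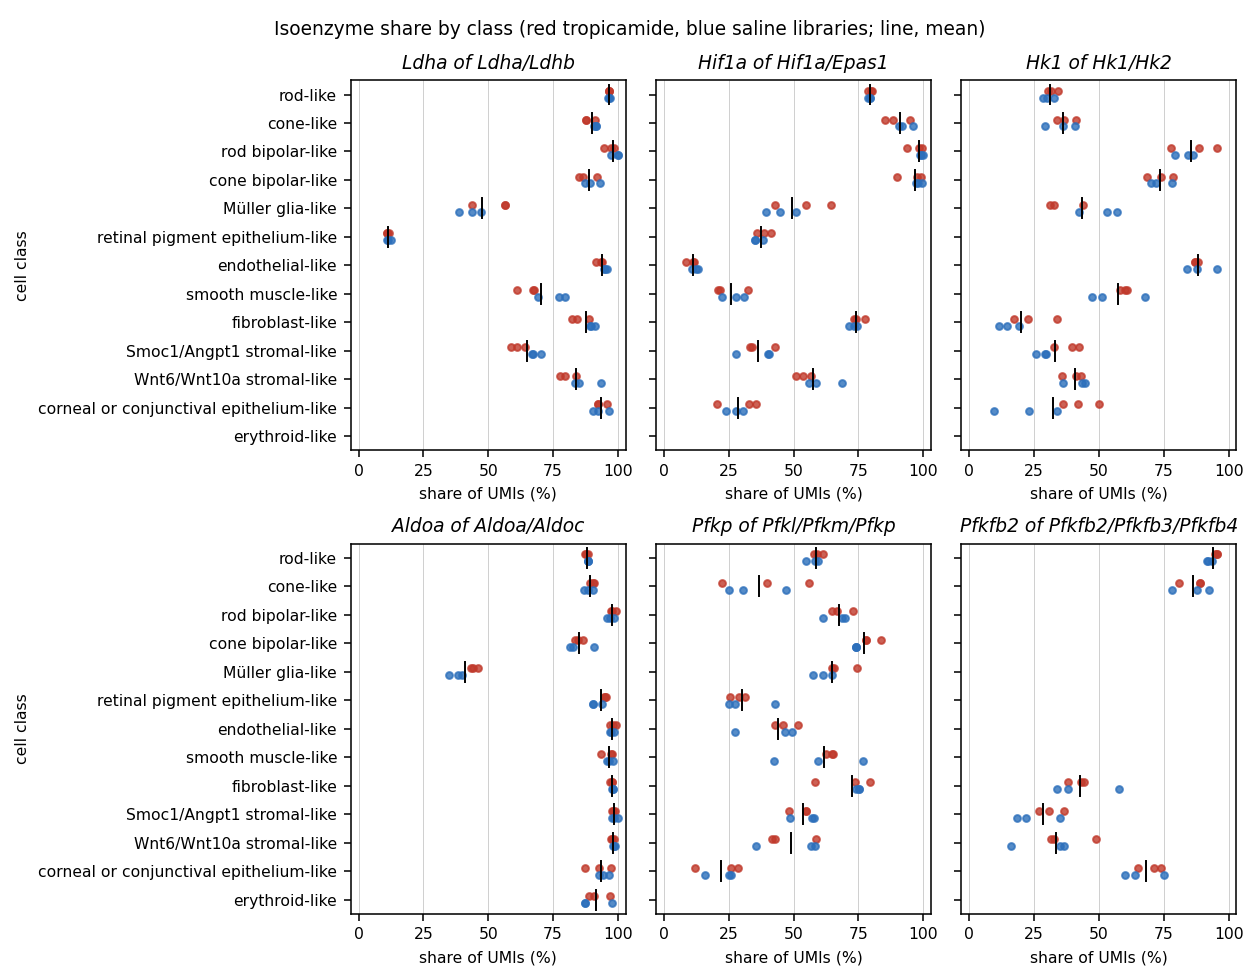
Share of a family's UMIs supplied by the named gene, in percent, in each class for 6 families; each dot is a library, red for tropicamide and blue for saline, and the line is the mean of the 6. The Ldha share is 96.62% in rods and 11.47% in RPE, and the Hif1a share is 79.35% in rods and 11.31% in endothelial cells; classes with fewer than 20 family UMIs in any library are not shown.

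Among the regulators of flux, Pfkfb2 was highest in rods, with cones next. It encodes a bifunctional kinase and phosphatase that sets the level of fructose-2,6-bisphosphate, the activator of phosphofructokinase. It averaged 384.5 CPM in rods (300.47 to 474.99), 140.41 CPM in cones (106.49 to 177.67) and 17.04 CPM in endothelial cells. Rhodopsin allows 9.68 to 26.6% rod RNA in cones, which could raise the cone value and was not taken off it. Pfkfb2 supplied 93.91% of the UMIs of the Pfkfb trio in rods, 42.59% in fibroblasts, 33.44% in Wnt6/Wnt10a stromal cells and 28.31% in Smoc1/Angpt1 stromal cells. Pfkfb3, the form known from sprouting vessels, took 43.59% in Smoc1/Angpt1 stromal cells and 1.0% in rods. Pfkfb4 took 45.27% in Wnt6/Wnt10a stromal cells and 5.1% in rods. Pdk1, a kinase that inhibits pyruvate dehydrogenase, averaged 19.62 CPM in rods and 37.42 CPM in cone bipolar cells.

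Tropicamide was compared with saline by edgeR's quasi-likelihood test on UMIs summed for each library and class, with p-values adjusted over all genes tested in that class. In rods 41 of the 43 members could be tested, all but Egln3 and Adm. Of these, 5 rose and 2 fell, and the median log2 fold change of the members was 0.03 against −0.003 for all genes. Over all 16260 genes tested in rods 10.3% were called, 5.55% higher and 4.75% lower, which is the background to the 7 of 41. At an unadjusted p under 0.05 there were 13 of 41 members, against 27.4% of all genes, and members whose groups did not overlap numbered 11 of 41, against 31.5%. The members called included 1 transporter, 1 regulator of flux and 3 hypoxia-induced genes among those that rose, and 2 glycolytic enzymes among those that fell.

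Pfkfb2 was 445.07, 474.99 and 444.62 CPM in rods with tropicamide and 330.08, 311.76 and 300.47 CPM with saline. Every tropicamide library was above every saline library, and the log2 fold change was 0.55 ± 0.05 (SE, n = 3 and 3, edgeR adjusted p = 0.000487). Slc16a1 was 171.2, 171.75 and 178.23 CPM with tropicamide and 129.32, 128.75 and 134.42 CPM with saline. It rose by 0.43 ± 0.05 on the log2 scale (edgeR adjusted p = 0.000883), again with no overlap. Ndrg1 was 249.37, 249.17 and 245.55 CPM with tropicamide and 209.62, 209.37 and 204.2 CPM with saline, a log2 fold change of 0.27 ± 0.05 (edgeR adjusted p = 0.00568). These 3 changes were small beside the differences between cell classes, and the libraries within a group lay close together. All 3 passed whichever library was left out, with adjusted p at most 0.00398, 0.00662 and 0.0306. In the rod clusters that retained mitochondrial RNA alone, Slc16a1 did not pass (edgeR adjusted p = 0.0641).

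The other rod changes were less stable. Txnip was 14.55, 16.98 and 10.55 CPM with tropicamide and 5.22, 3.35 and 8.59 CPM with saline, a log2 fold change of 1.31 ± 0.26 (edgeR adjusted p = 0.0119). It did not pass without tropicamide library 2 or without saline library 1, where the adjusted p reached 0.0684. P4ha2 rose from a level near the detection limit, with 1.41, 1.2 and 1.17 CPM against 0.67, 0.47 and 0.6 CPM (96 UMIs in all; log2 fold change 1.12 ± 0.30, edgeR adjusted p = 0.035). Leaving out any library ended that call (adjusted p 0.0514 to 0.121), as did the replicate block (0.0682) and keeping only rods with little mitochondrial RNA (0.0993). Pfkl was 77.58, 82.15 and 82.9 CPM with tropicamide and 107.54, 102.39 and 88.33 CPM with saline (log2 fold change −0.28 ± 0.07, edgeR adjusted p = 0.0332). Tpi1, triose phosphate isomerase, was 107.87, 119.19 and 117.4 CPM with tropicamide and 132.35, 149.58 and 129.76 CPM with saline (log2 fold change −0.24 ± 0.07, edgeR adjusted p = 0.0402). Pfkl and Tpi1 passed in 1 of 6 runs that left out a library, the run without saline library 3, and reached adjusted p of 0.115 and 0.149 in the others. Pfkl also did not pass under the replicate block (0.0545), in the largest rod cluster (0.291) or in rods retaining mitochondrial RNA (0.0839). Tpi1 did not pass in the largest rod cluster (0.0608) or in rods with little mitochondrial RNA (0.12). Hif1a (log2 fold change 0.15, edgeR adjusted p = 0.0765) and Hk2 (−0.17, edgeR adjusted p = 0.11) did not pass.

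**Figure D3:**
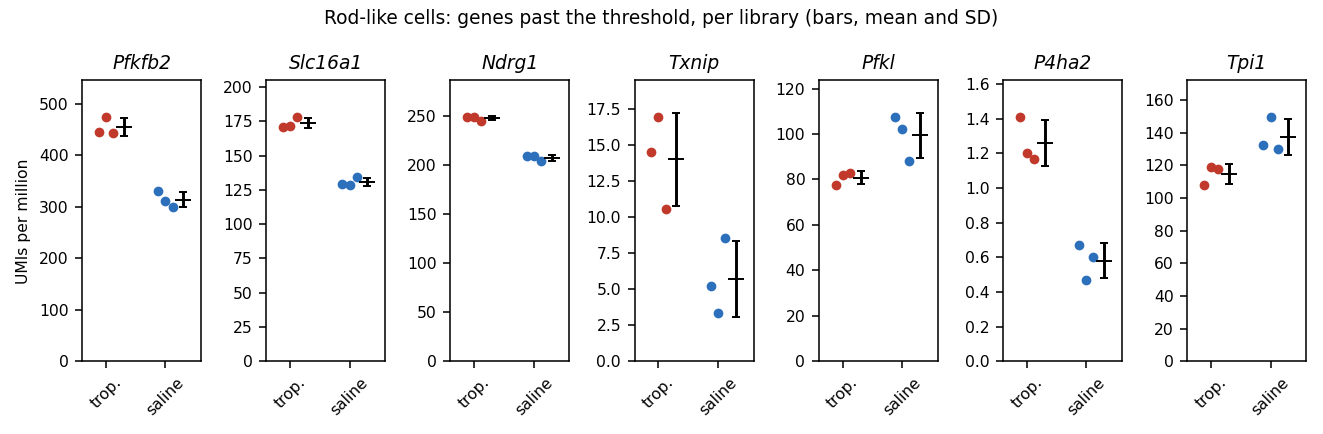
Level in rods of the 7 members called between tropicamide and saline, in CPM; each dot is a library and the marker with its bar is the mean with its SD over 3 libraries. For all 7 the tropicamide and saline libraries do not overlap: Pfkfb2, for example, runs from 444.62 to 474.99 CPM with tropicamide and from 300.47 to 330.08 CPM with saline.

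RNA of other cells in the rod sums moved with the treatment. The summed level of 9 RPE markers in rods was 123.24 to 280.68 CPM with tropicamide and 40.13 to 77.06 CPM with saline, with 8 of the 9 higher. The sum of 9 fibroblast markers was 343.87 to 470.46 CPM against 166.06 to 326.46 CPM, with all 9 higher. The sum of 5 erythroid markers was 50.19 to 1610.39 CPM against 12.48 to 32.69 CPM, and of 8 melanocyte markers 6.65 to 18.86 CPM against 3.64 to 4.65 CPM. None of these markers was at 0 throughout. Their part in most changes was not tested, but a ceiling could be set for fibroblast RNA and for RPE RNA, each taken off alone. With all fibroblast RNA that the markers allow (0.31 to 0.89% of rod UMIs) taken off, Txnip was 8.31, 10.95 and 7.18 CPM against 3.81, 2.03 and 5.63 CPM, and P4ha2 was 0.84, 0.67 and 0.74 CPM against 0.49, 0.32 and 0.23 CPM. With all RPE RNA taken off, Slc16a1 was 170.49, 170.34 and 177.1 CPM against 129.06, 128.57 and 133.99 CPM. For all 7 called members the groups still did not overlap after either subtraction. The 2 were not taken off together, and RNA of other classes was not taken off. Txnip was highest in smooth muscle (718.35 CPM) and P4ha2 in cone bipolar cells (70.88 CPM), so these ceilings do not cover all RNA of other cells.

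The makeup of the rods moved with the treatment as well. The largest rod cluster, of 9809 cells, held 15.6, 18.2 and 16.3% of rods with tropicamide and 23.7, 26.6 and 18.3% with saline, and a cluster of 5563 cells held 13.3, 17.8 and 12.9% against 6.5, 7.6 and 8.7%. Within clusters, over the 8 rod clusters with at least 30 cells in each library, Pfkfb2 was higher with tropicamide without overlap in 8. Tpi1 lay lower without overlap in 6 of the 8 and Pfkl in 5, Slc16a1, Ndrg1 and Txnip lay higher in 5 each, and P4ha2 in 1. These clusters share the free RNA of their library.

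In the retina, all neural classes and Müller glia summed, 42 members were tested and 2 rose, Pfkfb2 and Slc16a1, against 1.07% of all genes called (0.625% higher). Rods are by far the most numerous cells in this sum. Pfkfb2 was 401.35, 445.4 and 424.75 CPM with tropicamide and 301.42, 298.0 and 277.38 CPM with saline (log2 fold change 0.57 ± 0.07, edgeR adjusted p = 0.0237). Slc16a1 was 161.24, 166.27 and 174.8 CPM against 126.82, 128.73 and 131.72 CPM (log2 fold change 0.40 ± 0.06, edgeR adjusted p = 0.027). An unadjusted p under 0.05 was found for 9 of 42 members, against 20.2% of all genes, and groups without overlap for 10 of 42, these 2 among them, against 27.2%. Both calls passed in 1 of 6 runs that left out a library, the run without tropicamide library 1, and reached adjusted p of 0.145 and 0.163 in the others. Neither passed with the replicate number as a block. Without rods Pfkfb2 had a log2 fold change of 0.61 (edgeR adjusted p = 0.0574) and the direction of Slc16a1 turned (−0.19, edgeR adjusted p = 0.562), so neither passed.

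In the stroma, fibroblasts and both other stromal classes summed, all 43 members were tested and 0 were called by edgeR, where 0% of 14582 genes were called. At an unadjusted p under 0.05 there were 5 members of 43, against 12.2% of all genes, and 13 of 43 had groups that did not overlap, against 20.9%. DESeq2 called 2 members, Txnip and Ddit4, against 2.81% of all genes. Ddit4 was 68.39, 45.4 and 34.03 CPM with tropicamide and 16.6, 19.82 and 24.02 CPM with saline (log2 fold change 1.19 ± 0.23, edgeR adjusted p = 0.138). Txnip was 744.48, 660.21 and 545.58 CPM against 337.29, 412.35 and 457.23 CPM (0.61 ± 0.13, edgeR adjusted p = 0.159). Every tropicamide library was above every saline library for both genes. Hk2 lay the other way, at 132.34, 188.22 and 254.41 CPM against 365.67, 409.77 and 257.64 CPM (−0.91 ± 0.25, edgeR adjusted p = 0.219). Ndrg1 was 100.07, 123.25 and 141.28 CPM against 156.38, 185.92 and 146.25 CPM (−0.49 ± 0.15, edgeR adjusted p = 0.26). Tropicamide library 3 was the nearest to saline for Ddit4, Txnip, Hk2 and Ndrg1. Without it 5 members passed, the 4 just named and Ldhb, with Ddit4 at an adjusted p of 0.0195, and 2.3% of all genes were called. The summed level of 9 RPE markers in the stroma was 178.42 to 233.62 CPM with tropicamide and 53.67 to 125.17 CPM with saline, and its part in these values was not tested.

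Among the stromal classes taken alone, Txnip rose in Smoc1/Angpt1 stromal cells. It was 771.54, 794.46 and 813.23 CPM with tropicamide and 426.89, 466.48 and 513.9 CPM with saline (log2 fold change 0.70 ± 0.11, edgeR adjusted p = 0.0371). This was the only one of 37 members tested there to pass, where 0.127% of all genes were called, 0.0693% higher, and 4 had an unadjusted p under 0.05, against 8.55%. The call was lost without any single tropicamide library and without saline library 1, with adjusted p up to 0.164, and under the replicate block (0.076). The sum of 9 rod markers in these cells was 1321.24 to 2139.31 CPM with tropicamide and 816.0 to 1294.5 CPM with saline, with all 9 higher. With the rod RNA that rhodopsin allows taken off, Txnip was 770.58, 793.22 and 812.12 CPM against 426.61, 466.33 and 513.34 CPM. Fkbp5, a standard glucocorticoid target and no member, also rose in these cells by 1.10 on the log2 scale (edgeR adjusted p = 0.0445). In fibroblasts 43 members were tested and edgeR called 0, with 9 at an unadjusted p under 0.05 against 11.5% of all genes, of which 0% were called. There were 14 of 43 whose groups did not overlap, against 20%. DESeq2 called 2 there, Txnip and Ddit4, against 1.99% of all genes. Fibroblast Ddit4 was 77.45, 38.53 and 26.27 CPM against 13.66, 15.12 and 19.08 CPM (log2 fold change 1.46 ± 0.34, edgeR adjusted p = 0.22). Fibroblast Hk2 was 119.44, 201.49 and 289.55 CPM against 400.85, 480.43 and 288.29 CPM, and the fibroblast cluster richest in Hk2 made up 16.5, 28.9 and 25.9% of fibroblasts with tropicamide and 28.6, 32.6 and 30.8% with saline. Within that cluster Hk2 was 233.04, 356.15 and 398.86 CPM against 607.44, 710.34 and 397.42 CPM, so the groups touched at their edges. Without tropicamide library 3 Txnip, Hk2 and Ddit4 passed in fibroblasts, with 1.56% of all genes. In Wnt6/Wnt10a stromal cells edgeR called 0 of 38 members and DESeq2 0 (0.364% of all genes), with 6 at an unadjusted p under 0.05 (7.14% of all genes, 0.0994% called). Txnip there was 376.07, 378.59 and 363.51 CPM against 293.34, 235.12 and 285.14 CPM (edgeR adjusted p = 0.399).

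No member passed in the other 5 classes tested. In endothelial cells edgeR called 0 of 42 members and DESeq2 0 (0.0848% of all genes), with 3 at an unadjusted p under 0.05, against 5.62% of all genes, of which 0% were called. Ddit4 there was 153.34, 156.24 and 160.3 CPM with tropicamide and 108.93, 76.36 and 104.14 CPM with saline (edgeR adjusted p = 0.485). Without tropicamide library 3, Slc16a1 passed in endothelial cells, with 0.0511% of all genes. In RPE edgeR called 0 of 27 and DESeq2 0 (0.104% of all genes), with 1 at an unadjusted p under 0.05 (6.64% of all genes, 0.125% called). That gene, Aldoc, was 96.36, 81.51 and 88.18 CPM against 184.38, 173.2 and 111.44 CPM (log2 fold change −0.73, edgeR adjusted p = 0.0926). It passed without tropicamide library 1 or without saline library 3, with a lowest adjusted p of 0.0193. In Müller glia edgeR called 0 of 33 and DESeq2 0 (1.39% of all genes), with 6 at an unadjusted p under 0.05 (8.56% of all genes, 0.415% called) and 8 whose groups did not overlap (14%). Pfkfb2 in Müller glia was 43.05, 46.03 and 45.43 CPM against 24.0, 25.08 and 18.35 CPM (log2 fold change 0.96, edgeR adjusted p = 0.348). The rod RNA that rhodopsin allows there, given with the aldolases, could hold nearly all of it, since taking it off left 0 CPM in 5 libraries and 5.03 CPM in saline library 2. Vegfa in Müller glia, at the levels given above, kept groups without overlap after that subtraction. In cones edgeR called 0 of 33 and DESeq2 0 (0.0137% of all genes), with 0 at an unadjusted p under 0.05 (4.62% of all genes, 0.041% called). The lowest p was that of Ldha, at 515.77, 588.78 and 620.27 CPM against 609.1, 712.1 and 739.52 CPM, whose groups overlapped (edgeR adjusted p = 0.999). In cone bipolar cells edgeR called 0 of 35 and DESeq2 0 (0.0662% of all genes), with 1 at an unadjusted p under 0.05 (4.69% of all genes, 0.116% called). That member, Egln1, was 103.19, 102.9 and 116.19 CPM against 53.26, 69.4 and 77.79 CPM (edgeR adjusted p = 0.938). These classes had between 30 and 660 cells in a library.

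**Figure D4:**
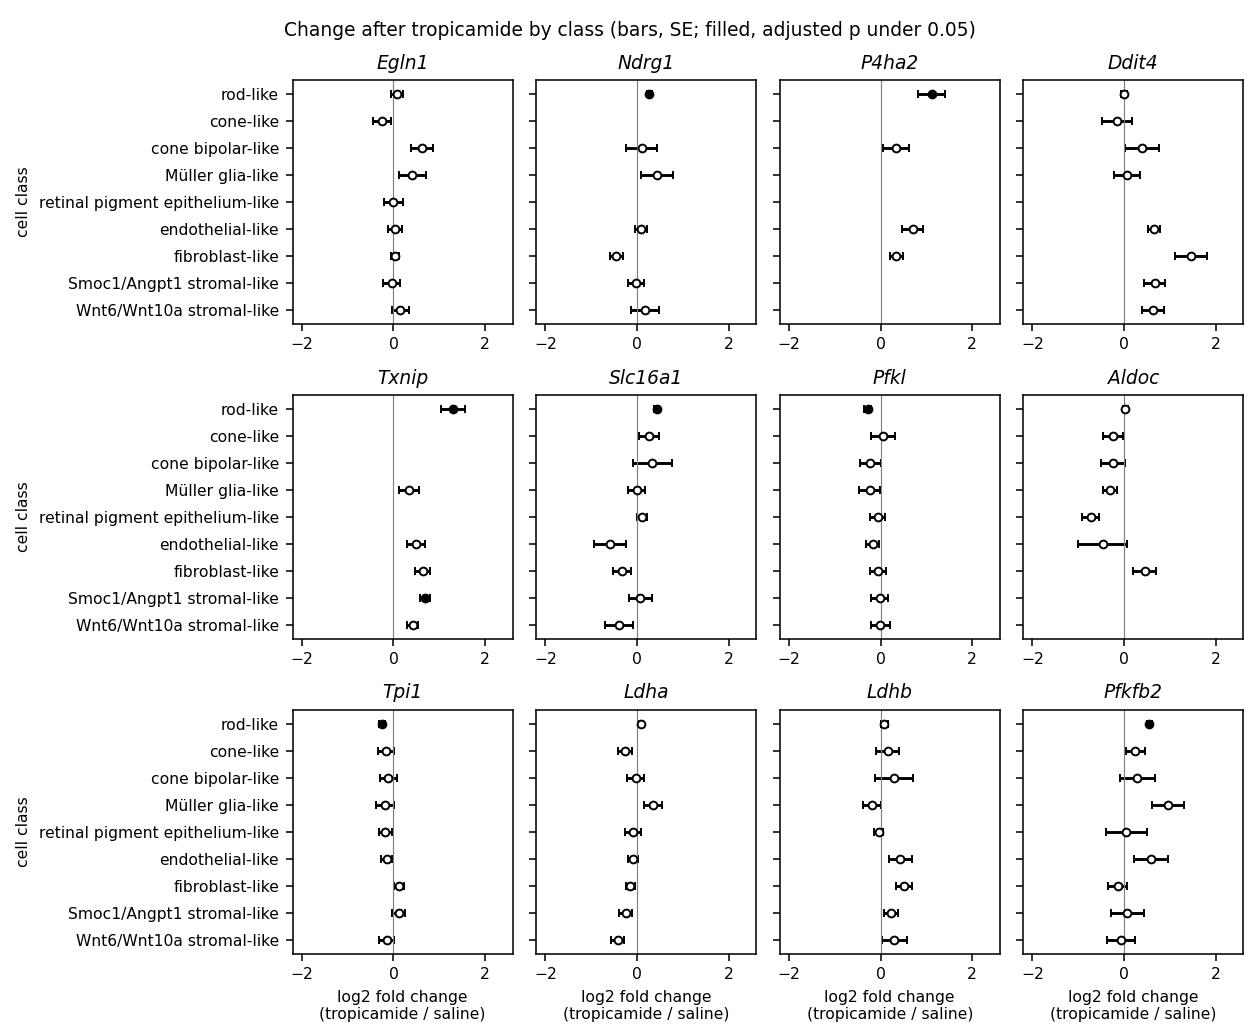
Log2 fold change of tropicamide over saline with its standard error for 12 members in the 9 classes tested; filled points have an edgeR adjusted p under 0.05 and a gene missing from a class was not tested there. Txnip lies to the positive side in rods (1.31) and Smoc1/Angpt1 stromal cells (0.70), and Ndrg1 at 0.27 in rods.

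With all cells summed, edgeR called 0 of 43 members, where 0.01% of all genes were called, and 4 had an unadjusted p under 0.05, against 15.4%. DESeq2 called 2, Txnip and Ldhb, against 2.6% of all genes. Ldhb was 67.62, 77.77 and 86.81 CPM with tropicamide and 45.5, 45.18 and 50.57 CPM with saline (log2 fold change 0.75 ± 0.11, edgeR adjusted p = 0.222). RPE, the class richest in Ldhb, supplied 269, 660 and 526 cells with tropicamide and 86, 68 and 184 with saline.

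Whether the change differed between stroma and retina was tested as an interaction, with libraries as blocks. Of 42 members 0 passed in edgeR, and 0 in limma on the per-library differences, where 0% of all genes were called. At an unadjusted p under 0.05 there were 12 of 42 members, against 13.4% of all genes. Ndrg1 had the lowest p (difference −0.80 ± 0.13 on the log2 scale, edgeR adjusted p = 0.14), with a positive change in retina and a negative one in stroma. Next came Pfkfb2 (−0.68, adjusted 0.15) and Ddit4 (1.14, adjusted 0.188). Without tropicamide library 3 Ndrg1 passed (edgeR adjusted p = 0.0454), with 0.415% of all genes.

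Isoenzyme shares were also compared between treatments. Of 114 comparisons 21 had groups that did not overlap, and 0 passed: with 3 libraries against 3 the exact permutation test cannot go below 0.1, and the adjusted p was 0.5429. The Ldha share of Smoc1/Angpt1 stromal cells was 58.89, 60.92 and 64.24% with tropicamide and 67.27, 67.06 and 70.31% with saline. The P4ha1 share of endothelial cells averaged 59.69% with tropicamide and 70.46% with saline, without overlap. The Aldoa share of Müller glia, given above, averaged 44.53% with tropicamide and 37.74% with saline before rod RNA was taken off. The widest difference between treatments was −14.77 points, for the Hk1 share of Müller glia, whose groups overlapped. That share is given before rod RNA was taken off, and rhodopsin allows more rod RNA in Müller glia with tropicamide than with saline. The part of rod RNA in this difference was not tested.

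Other genes of the same pathways, from lists of 30 hypoxia genes and 35 glucose metabolism genes that are not members, were tested alongside. In rods 25 of the 30 could be tested. Cited2 rose (log2 fold change 0.23, edgeR adjusted p = 0.039), and the glycogen branching enzyme Gbe1 fell (−0.25, edgeR adjusted p = 0.0156). Cited2 encodes a competitor of the HIF subunits for their co-activator. Of the 35, 26 could be tested and 1 rose, where 5.55% of all genes did. It was Slc16a8, the RPE lactate carrier MCT3, at 2.82, 6.93 and 5.07 CPM with tropicamide and 0.73, 0.73 and 1.7 CPM with saline (edgeR adjusted p = 0.00531). Slc16a8 moved with the RPE marker sum in rods given above. In the retina Gbe1 fell too (−0.32, edgeR adjusted p = 0.0375). In the stroma 0 of either list were called by edgeR. Among 12 glucocorticoid-responsive genes 3 rose in rods, Tsc22d3 (0.48), Mt1 (0.92) and Klf9 (0.22), against 5.55% of all genes. Among 10 early response genes 3 fell there, Atf3 (−0.67), Egr1 (−0.81) and Ier2 (−0.47), against 4.75% of all genes. The values in brackets are log2 fold changes. Fkbp5 rose in Müller glia (1.38, edgeR adjusted p = 0.0037) and in Wnt6/Wnt10a stromal cells (1.09, edgeR adjusted p = 0.0162) as well as in Smoc1/Angpt1 stromal cells. In Müller glia Zbtb16 rose (1.30) while Cebpd (−0.69) and Junb (−0.71) fell, Fosb fell in Smoc1/Angpt1 stromal cells (−0.58), and Atf3 fell in the retina (−0.88). Of all genes, 0.415% were called in Müller glia, 0.0994% in Wnt6/Wnt10a stromal cells, 0.127% in Smoc1/Angpt1 stromal cells and 1.07% in the retina. The part of these genes in the changes of the members was not tested.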

How the data were processed

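Single-cell RNA was measured in 6 libraries of mouse ocular cup, each a pool of 4 eyes. The deposited matrices hold UMI counts made by the authors with Cell Ranger 8.0.1 and STAR on GRCm39, per the submitters' processing notes; the sources used here state neither the chemistry nor the annotation release nor whether introns were counted. Intronic reads and reads shared with pseudogenes could therefore affect the counts. Barcodes with under 500 UMIs, under 300 genes or over 20% mitochondrial UMIs were removed (416 of 66434), as were 5922 barcodes scored as doublets against simulated ones. Cells were scaled to 10000 UMIs and clustered with Leiden (leidenalg 0.10.2, resolution 1) on 30 components of 2000 variable genes, leaving out the members and the other pathway genes. Of 60096 cells, 914 in 8 clusters stayed unnamed. Free RNA was not removed.

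UMIs were summed for each library and class; the library is the replicate, since cells are not. Classes of 30 or more cells in each library were tested with edgeR 4.0.16 (TMM, quasi-likelihood, R 4.3.3), adjusting over all genes that passed its filter on low counts, with a threshold of 0.05. DESeq2 1.42.0, other filters, clusterings and left-out libraries were alternatives. Shares used exact sign-flip or permutation tests, two-sided. The scripts were tested on simulated data. Every member is described; the text names members called in a comparison, the member with the lowest p in each class, and those with the widest isoenzyme differences, with others chosen after their values were seen. The members, lists and tests were chosen with earlier results of these data known. Aldoa is listed under 2 identifiers, and the one with more UMIs was used. A result from the further pathway lists is not reported here.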

Additional observations from a re-analysis of the deposited data

Results flagged for a closer look

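For 5 members the groups did not overlap in each of 2 classes and lay in opposite directions. That is 11.6% of the 43 members, where 11.7% of the 13598 genes tested in 2 classes or more had the same pattern. Whether the changes differ between the classes was not tested, and the classes of a library share its free RNA. Ndrg1 had a log2 fold change of 0.27 in rods and −0.45 in fibroblasts, a difference of 0.72. Epas1 had 0.11 in rods and −0.52 in Müller glia, a difference of 0.62. Vegfa had 0.45 in Müller glia and −0.55 in Smoc1/Angpt1 stromal cells, a difference of 1.01. Ero1a had 1.07 in Müller glia and −0.36 in fibroblasts, a difference of 1.42. Bnip3l had 0.31 in Müller glia and −0.12 in endothelial cells, a difference of 0.44. With the rod RNA that rhodopsin allows taken off in Müller glia, the groups still did not overlap for Epas1, Vegfa and Ero1a and did for Bnip3l. What was left was not rescaled. The part taken off was 16.22, 16.62 and 18.96% with tropicamide and 10.43, 6.43 and 11.39% with saline, which lowers the tropicamide values more. Neither the overlap of Bnip3l nor the gap of Epas1 can therefore be read from that subtraction. Of these 10 values only that of Ndrg1 in rods passed the edgeR test.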

How the results depend on the processing

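The isoenzyme shares named kept their direction under every alternative run for them. For the class levels the only alternative was the subtraction of rod RNA without rescaling, which can only lower a level. Under it 37 stayed within the spread between libraries and 2 moved. The class of highest level changed for Egln1, Kdm3a, Hk1, Bnip3l and Pdk1 under that subtraction, which for want of rescaling does not show their order. The number of called share comparisons with rods was 105 to 109 against 107. Counts of members called between treatments moved more. DESeq2 called 2 members in fibroblasts (1.99% of all genes with an adjusted p), 2 in Smoc1/Angpt1 stromal cells (0.784%), 2 in the stroma (2.81%), 5 in the retina (6.4%) and 2 in all cells (2.6%). Without the filter on low counts there were 3 in fibroblasts (1.47% of all genes), 3 in endothelial cells (0.762%), 3 in Smoc1/Angpt1 stromal cells (0.658%) and 5 in the stroma (1.36%). In the largest RPE cluster alone 1 passed (0.293%). In the retina without rods 4 passed (3.24%) and Slc16a1 reversed (−0.191), and with that retina, an alternative added after seeing the data, 4 members passed the test of stroma against retina (1.11%). Taking rod RNA off in Müller glia and Smoc1/Angpt1 stromal cells was also chosen after seeing the data. Leaving out 1 library at a time gave 3 to 7 called members in rods (2.02 to 14.3% of all genes) and 0 to 3 in fibroblasts (0 to 1.56%). There were 0 to 1 each in RPE (0.105 to 0.458%), endothelial cells (0 to 0.0511%) and Smoc1/Angpt1 stromal cells (0.0221 to 0.297%). The stroma had 0 to 5 (0 to 2.3%), the retina 0 to 2 (0 to 0.852%) and stroma against retina 0 to 1 (0 to 0.415%). Of the shares, 27 to 34 had groups without overlap, against 21. Runs without a library have fewer samples; otherwise the cause was not tested. The replicate numbers did not pair the libraries (correlations in rods −0.033, −0.128 and −0.255, with 0.234 between other numbers). With the replicate block 6 members passed in rods (7.71% of all genes), without Pfkl (0.0545) and P4ha2 (0.0682) and with Kdm3a. The block left 0 in the retina (0%) and 0 in Smoc1/Angpt1 stromal cells (0.0577%). Depth limits the smaller classes: 16 of 43 members could not be tested in RPE and 10 in Müller glia.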

Other observations

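Rods divided into clusters that retained mitochondrial RNA and clusters with little of it, and glycolytic transcripts differed between them. The retaining clusters had median mitochondrial shares of 2.377, 6.564 and 7.119% and the others 0.13 to 0.372%, so none lay near the division at 1%. They held 26.16, 21.63 and 25.89% of rods with tropicamide and 19.4, 17.49 and 25.36% with saline. The sum of the 17 glycolytic enzymes was 6991.6 ± 473.9 CPM in the retaining clusters and 5578.4 ± 249.6 CPM in the others (SD, n = 6 libraries). Gapdh was 1430.46 against 827.24 CPM, 1.73 times higher and higher in 6 of 6 libraries, and Pgam1, Aldoa and Pkm were 1.51, 1.47 and 1.39 times higher. Hk2 and Ldha did not follow, at 0.99 and 0.95 times, and Ddit4 and Ankrd37 were at 0.74 and 0.82 times. The median ratio was 1.17 over the 17 enzymes, 0.95 over 13 hypoxia-induced genes and 0.896 over the 11060 genes at 5 CPM or more. These are values of clusters built from the same cells, so no test is given.

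Epas1 and Txnip separated the clusters of smooth muscle. With the cells of all libraries summed, Epas1 was 972.09 CPM in the larger cluster and 150.43 CPM in the smaller, while Txnip was 574.5 and 1051.64 CPM. Among cone bipolar clusters Pfkp ran from 345.97 to 893.06 CPM.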
